A study of Mus musculus and Rattus norvegicus with 24 samples.

Results

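Striatal projection neurons are the GABAergic output cells of the striatum, the input station of the basal ganglia, and make up most of its neurons. In textbook accounts they fall into a direct-pathway class, marked by the dopamine receptor gene Drd1, and an indirect-pathway class, marked by the dopamine receptor gene Drd2 and the adenosine receptor gene Adora2a. Both classes share a cAMP signalling chain whose genes are far less active in the cerebral cortex, and the striatum lies deep in the territory of the middle cerebral artery.

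The genes described here are 8 such genes, chosen by symbol: Drd1, Drd2, Adora2a, Gpr52, Rgs9, Adcy5, Pde10a and Ppp1r1b. They were measured among 22180 mouse and 18166 rat genes with a symbol of their own on whole-transcript arrays. In rat all 8 had a transcript cluster, the array's unit of measurement for a gene. In mouse 6 had one. No mouse cluster carried the symbol Adora2a here, and the mouse Ppp1r1b cluster carried a second symbol as well, so neither has a mouse value. All 6 mouse genes and 7 of the 8 rat genes had a mean above the median of their arrays, with rat Adora2a the exception.

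The study compared permanent middle cerebral artery occlusion (pMCAO), a stroke model that leaves a filament in the artery for good, with sham surgery that was otherwise the same. Male C57BL/6 mice aged 8 to 10 weeks were occluded on the right with a standard filament, and male Sprague-Dawley rats aged 8 to 12 weeks on the left with a silicone-coated one, all under isoflurane. Tissue of 3 by 3 mm came from the penumbra, the border of the ischaemic core, or from a like region on the operated side of sham animals. The 8 groups were pMCAO and sham at 2 h and at 6 h in each species, with 3 animals and 1 array an animal, 24 arrays in all. The labels do not say how much of each piece was striatum and how much cortex. In such bulk tissue, fewer striatal neurons and less RNA per neuron cannot be told apart.

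All values are log2 expression as the authors deposited it. Array medians lay between 6.03 and 6.06 in mouse at 2 h and between 5.92 and 5.96 at 6 h, and between 6.67 and 6.75 in rat at 2 h and between 5.82 and 5.87 at 6 h. Levels were therefore compared within a species and time only. Levels of different genes come from different probes and were not ranked against each other. All 12 pan-neuronal markers averaged above the array median in both species. The number of arrays, 3 a group, limits the precision of every value below. Tests are limma's moderated test on the log2 values, two-sided, with Benjamini-Hochberg adjustment over all genes of the species and a threshold of adjusted p 0.05. SEs and intervals use a spread pooled over all groups of the species. Counts at an unadjusted p under 0.05 are description only, since the share of all genes at that threshold was not computed. Alone, an exact permutation test of 3 against 3 arrays cannot go below p = 0.1.

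The promoters of the receptor genes that separate the projection neuron classes are shown because Drd1 and Drd2 are described side by side throughout. They are from RefSeq (mouse GRCm38.p6). For Drd1 the 250 bases before the gene start (chr13:54055659-54055908, minus strand) are given, and for Drd2 the 207 bases before the annotated gene (chr9:49340153-49340359, plus strand). Capitals mark the GC box core GGGCGG on either strand.
Drd1: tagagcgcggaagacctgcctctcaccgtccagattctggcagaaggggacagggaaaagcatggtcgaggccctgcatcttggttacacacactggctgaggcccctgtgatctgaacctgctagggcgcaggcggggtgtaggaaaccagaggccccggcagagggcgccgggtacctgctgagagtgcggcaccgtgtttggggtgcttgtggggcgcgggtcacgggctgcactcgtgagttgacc
Drd2: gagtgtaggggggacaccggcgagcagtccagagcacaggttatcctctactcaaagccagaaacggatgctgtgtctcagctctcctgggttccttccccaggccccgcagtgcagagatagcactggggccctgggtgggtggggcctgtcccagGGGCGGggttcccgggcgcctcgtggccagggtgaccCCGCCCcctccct
In these windows Drd2 held 2 GC box matches and Drd1 held 0. The table gives Drd1 a second start, whose window is not printed and held 1 GC box match. None of these 3 windows held the TATA box core TATAAA or the cAMP response element TGACGTCA. Both printed windows were rich in G and C, at 64.0% for Drd1 and 67.6% for Drd2, against a median of 52.4% over 32851 mouse promoter windows of 250 bases. Of those windows, 32.7% held GGGCGG, 12.4% held TATAAA and 1.55% held TGACGTCA. The windows were scanned for these letters alone on both strands, and the motifs do not overlap one another. Windows were found for 5 of the 8 genes.

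In the mouse at 6 h, all 6 measured genes averaged lower after pMCAO than after sham, as did 53.4% of all mouse genes, and Drd2, Gpr52 and Adcy5 passed the test. Drd2 averaged 0.321 times and Gpr52 0.405 times its sham level. The count of 3 falls among 6 genes stands beside 4.23% of all mouse genes that fell in this comparison. The genes' median log2 difference was -0.70, against -0.02 over all genes tested. A single sham array, replicate 2, lay near the pMCAO arrays for most of these genes. The number that passed was 6 without it and 1 without any other of the 6 arrays.

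Among the receptors, Drd2, the inhibitory dopamine receptor of the indirect pathway, had log2 levels of 6.86, 6.62 and 6.20 on the mouse 6 h pMCAO arrays, against 8.64, 7.11 and 8.85 on the sham arrays. Every pMCAO array was below every sham array, and the gap was narrow only for sham replicate 2. The log2 difference was -1.64 ± 0.41 (SE, 95% interval -2.54 to -0.74, limma adjusted p = 0.0355, n = 3 a group).

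Gpr52, an orphan receptor coupled to cAMP production and enriched in indirect-pathway neurons, had 6.91, 7.03 and 6.84 on the mouse 6 h pMCAO arrays, against 8.18, 7.75 and 8.76 on the sham arrays. The pMCAO arrays were tightly grouped and all lay below sham. Its log2 difference of -1.30 ± 0.19 (SE, 95% interval -1.72 to -0.89, limma adjusted p = 0.00431) exceeded the whole sham range of 1.01. Drd2 and Gpr52 were the members without overlap in this comparison, where 14.6% of all genes had every pMCAO array below every sham array.

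Drd1, the stimulatory dopamine receptor of the direct pathway, had 6.42, 6.21 and 6.67 on the mouse 6 h pMCAO arrays, against 7.17, 6.62 and 7.59 on the sham arrays. The groups overlapped, since pMCAO replicate 3 lay above sham replicate 2. The log2 difference of -0.69 ± 0.22 (SE, 95% interval -1.18 to -0.21) did not pass the test (limma adjusted p = 0.0806).

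Of the enzymes, Adcy5, the main adenylyl cyclase of striatal neurons, had 8.42, 8.12 and 8.24 on the mouse 6 h pMCAO arrays, against 9.07, 8.40 and 9.24 on the sham arrays. It fell by 0.64 ± 0.18 on the log2 scale (SE, 95% interval -1.03 to -0.26, limma adjusted p = 0.0483), although pMCAO replicate 1 lay just above sham replicate 2. Pde10a, the phosphodiesterase that breaks down cAMP and cGMP in these cells, had 8.28, 8.24 and 8.12 on the pMCAO arrays, against 9.11, 8.25 and 9.28 on the sham arrays. The gap was again only to sham replicates 1 and 3, and the log2 difference of -0.67 ± 0.22 (SE) did not pass (limma adjusted p = 0.0839).

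Rgs9, the GTPase-activating protein that shortens dopamine receptor signalling in the striatum, had 7.96, 7.72 and 8.03 on the mouse 6 h pMCAO arrays, against 8.82, 7.93 and 9.06 on the sham arrays. Sham replicate 2 lay inside the pMCAO range. The log2 difference was -0.70 ± 0.25 (SE, limma adjusted p = 0.117).

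**Figure D1:**
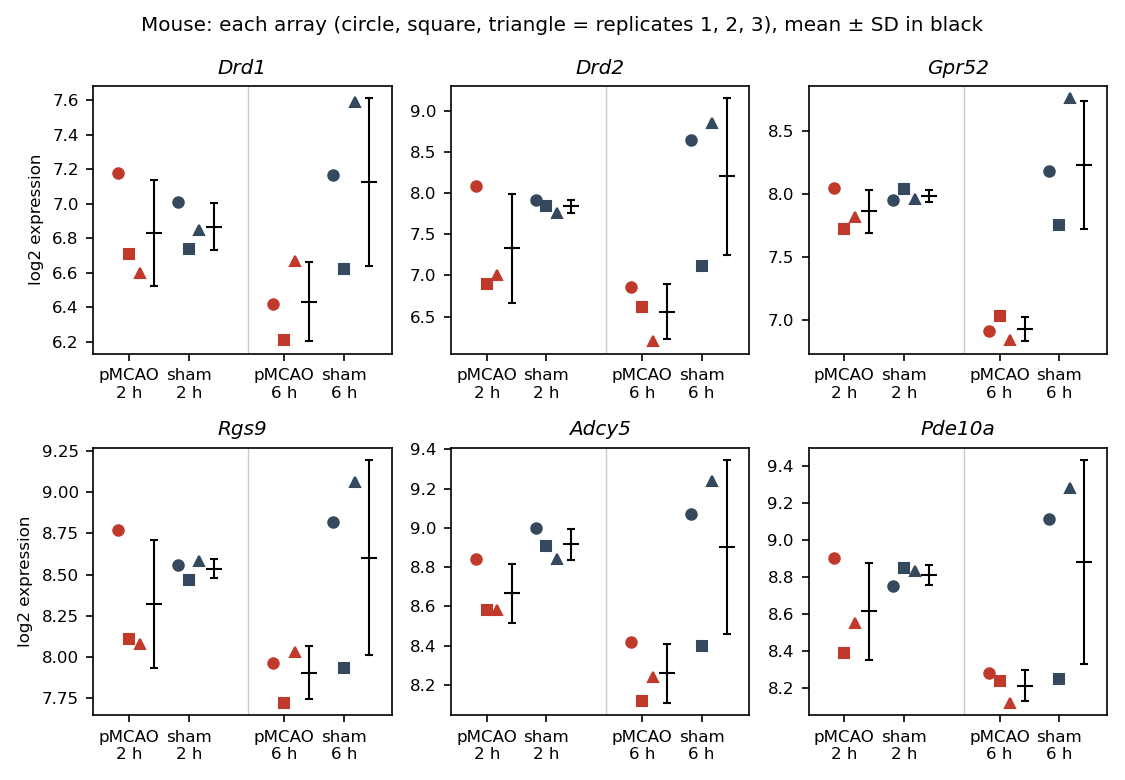
Log2 expression of the 6 measured genes on each of the 12 mouse arrays, with pMCAO (red) left of sham (blue) at 2 h and 6 h; circles, squares and triangles are replicates 1, 2 and 3, and the black bar is the mean ± SD of 3 arrays. At 6 h the blue square, sham replicate 2, lies well below the other sham arrays in every panel, and only in Drd2, Gpr52 and Adcy5 did the difference pass the test.

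The calls were recomputed without each array in turn. Without sham replicate 2, all 6 genes fell, with log2 differences from -2.19 in Drd2 (limma adjusted p = 0.00613) to -0.90 in Adcy5 (adjusted p = 0.00405). Without any other of the 6 arrays, pMCAO replicates 1, 2 and 3 or sham replicates 1 and 3, a single gene passed each time, and it was Gpr52. Gpr52 passed in all 6 such fits, with limma adjusted p from 0.00118 to 0.0170 and log2 differences from -1.54 to -1.04. Drd2 and Adcy5 also lost their call with array weights, with the 6 arrays of 6 h alone and with every cluster of the table tested, Drd2 with a trended and robust eBayes, and Adcy5 with quantile normalization. The cause was not tested.

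At 2 h in the mouse, none of the 6 genes passed the test with limma, and at an unadjusted p under 0.05 the count was also 0. The share of all mouse genes called at 2 h was 0.298%. All 6 log2 differences were below 0, as were 51.5% of all genes, with a median of -0.21 against -0.01 over all genes. Drd2 had 8.09, 6.90 and 7.0 on the 2 h pMCAO arrays, against 7.91, 7.84 and 7.76 on the sham arrays. Replicate 1 of pMCAO lay above every sham array and replicates 2 and 3 far below, so the difference of -0.51 ± 0.41 (SE, 95% interval -1.41 to 0.39) was not resolved (limma adjusted p = 0.817).

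Replicate 1 of pMCAO was also the highest pMCAO array of the other 5 genes at 2 h in the mouse. Rgs9 had 8.77, 8.11 and 8.08 on the pMCAO arrays, against 8.56, 8.47 and 8.58 on the sham arrays. Pde10a had 8.90, 8.39 and 8.55 on the pMCAO arrays, against 8.75, 8.85 and 8.83 on the sham arrays. In both, pMCAO replicate 1 was the highest of the 6 arrays and the other pMCAO arrays were the lowest.

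Gpr52 had 8.05, 7.72 and 7.82 on the mouse 2 h pMCAO arrays, against 7.95, 8.04 and 7.96 on the sham arrays. Drd1 had 7.18, 6.71 and 6.60 on the pMCAO arrays, against 7.01, 6.74 and 6.85 on the sham arrays. Replicate 1 was again the highest pMCAO array in both genes. Adcy5 had 8.84, 8.58 and 8.58 on the pMCAO arrays, against 9.0, 8.91 and 8.84 on the sham arrays, with the highest pMCAO array level with the lowest sham array. Log2 differences of these 3 genes were -0.12 ± 0.19 for Gpr52, -0.04 ± 0.22 for Drd1 and -0.25 ± 0.18 for Adcy5 (SE), with limma adjusted p from 0.789 to 0.983. In mouse at 2 h the intervals still held falls of some size: the lower bounds ran from -0.52 in Drd1 and -0.54 in Gpr52 to -1.41 in Drd2.

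The test of whether the pMCAO effect itself changed between 2 h and 6 h passed for 0 of the 6 mouse genes with limma, against 0.171% of all mouse genes, and 1 gene had an unadjusted p under 0.05. That gene was Gpr52, whose effect was lower at 6 h than at 2 h by 1.18 on the log2 scale (difference -1.18 ± 0.27 (SE), limma adjusted p = 0.101). Drd2 had a difference of -1.13 ± 0.58 (SE, adjusted p = 0.411 in limma). Passing the test at 6 h and not at 2 h therefore does not show a change over time for any of them.

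In the rat at 6 h none of the 8 genes passed the test with limma, where 6.47% of all rat genes were called, and 2 had an unadjusted p under 0.05. The median log2 difference of the 8 genes was 0.02, against -0.02 over all genes, and 3 of the 8 were below 0, against 53.9% of all genes. The 2 genes with small unadjusted p, Gpr52 and Pde10a, lay in opposite directions.

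Gpr52 had 6.50, 6.49 and 6.20 on the rat 6 h pMCAO arrays, against 6.76, 6.64 and 6.80 on the sham arrays. Every pMCAO array lay below every sham array, as in 14.8% of all rat genes. The log2 difference was -0.34 ± 0.10 (SE, 95% interval -0.54 to -0.13, limma adjusted p = 0.0570). Pde10a had 9.25, 8.94 and 9.44 on the rat 6 h pMCAO arrays, against 8.84, 8.97 and 8.81 on the sham arrays. Replicates 1 and 3 of pMCAO were above sham and replicate 2 was not, and the difference was 0.34 ± 0.11 (SE, 95% interval 0.09 to 0.58, limma adjusted p = 0.0993). Without pMCAO replicate 2, Pde10a passed as a rise, with a log2 difference of 0.47 (limma adjusted p = 0.0141).

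Drd2, at -1.64 in mouse, had 5.95, 6.14 and 6.21 on the rat 6 h pMCAO arrays, against 5.83, 6.03 and 6.18 on the sham arrays. The groups lay on top of each other, with a log2 difference of 0.09 ± 0.13 (SE, 95% interval -0.20 to 0.38, limma adjusted p = 0.764). Drd1 had 5.88, 6.01 and 5.93 on the pMCAO arrays, against 6.10, 5.94 and 5.87 on the sham arrays. That gave -0.03 ± 0.12 (SE, limma adjusted p = 0.916), with the groups again overlapping throughout.

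The remaining rat genes at 6 h spread around 0. Adora2a, the adenosine receptor that opposes dopamine in the indirect pathway, had 5.61, 5.48 and 5.13 on the pMCAO arrays, against 5.08, 4.88 and 5.30 on the sham arrays. Its difference of 0.32 ± 0.17 (SE, limma adjusted p = 0.303) was upward in pMCAO and unresolved, and the levels lay below the array median. Ppp1r1b, which encodes a phosphoprotein that inhibits protein phosphatase once dopamine signalling has phosphorylated it, had 7.64, 7.77 and 7.69 on the pMCAO arrays, against 7.71, 7.81 and 7.79 on the sham arrays. Adcy5 had 8.18, 7.93 and 8.05 on the pMCAO arrays, against 8.11, 8.01 and 7.93 on the sham arrays. Rgs9 had 6.34, 6.30 and 6.24 on the pMCAO arrays, against 6.16, 6.37 and 6.35 on the sham arrays. In all 4 genes the groups overlapped, and the last 3 differed by -0.07, 0.04 and 0.00 on the log2 scale.

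**Figure D2:**
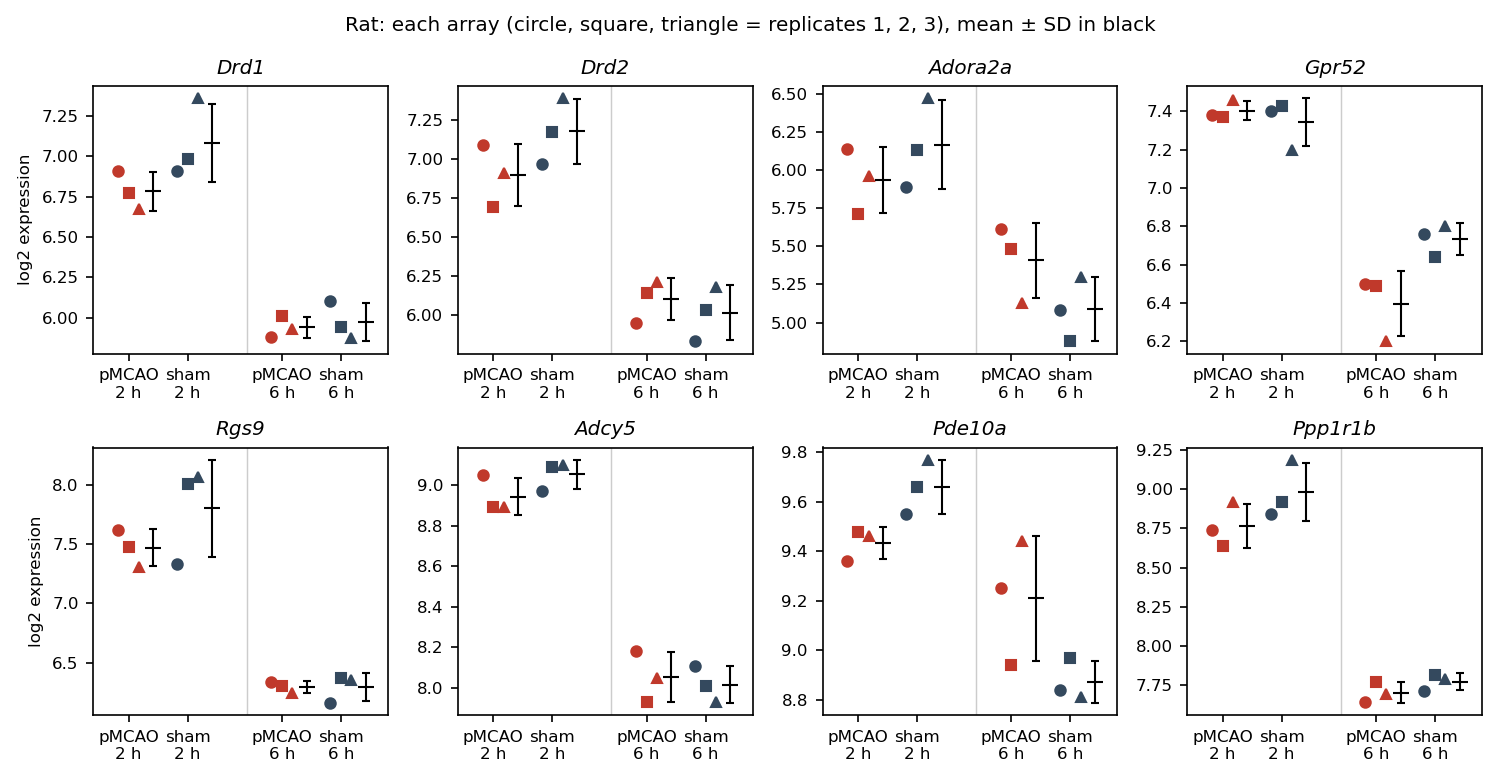
Log2 expression of the 8 genes on each of the 12 rat arrays, with pMCAO (red) left of sham (blue) at 2 h and 6 h; circles, squares and triangles are replicates 1, 2 and 3, and the black bar is the mean ± SD of 3 arrays. At 6 h Gpr52 lies lower after pMCAO without overlap, Pde10a lies higher on all but 1 pMCAO array, and no gene passed the test at either time.

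At 2 h in the rat 0 of the 8 genes passed with limma, where 0.0661% of all rat genes were called, and 2 had an unadjusted p under 0.05. Of the 8, 7 lay below sham, against 50.7% of all rat genes, and the median log2 difference was -0.23. The genes of a species share their arrays, so their signs, here and in the mouse, are not separate observations. Rgs9 had 7.62, 7.48 and 7.31 on the rat 2 h pMCAO arrays, against 7.33, 8.01 and 8.07 on the sham arrays, a difference of -0.33 ± 0.16 (SE, limma adjusted p = 0.725). Sham replicate 1 lay at the low end of the pMCAO arrays.

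Drd1 had 6.91, 6.77 and 6.67 on the rat 2 h pMCAO arrays, against 6.91, 6.98 and 7.36 on the sham arrays. Drd2 had 7.09, 6.69 and 6.91 on the pMCAO arrays, against 6.97, 7.17 and 7.39 on the sham arrays. The highest pMCAO array reached the lowest sham array in both. Their log2 differences were -0.30 ± 0.12 and -0.28 ± 0.13 (SE, limma adjusted p = 0.611 for Drd1 and 0.722 for Drd2).

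Pde10a had 9.36, 9.48 and 9.46 on the rat 2 h pMCAO arrays, against 9.55, 9.66 and 9.77 on the sham arrays. It was the member without overlap at this time, as were 7.57% of all rat genes in that direction, and its difference was -0.23 ± 0.11 (SE, limma adjusted p = 0.735). Ppp1r1b had 8.74, 8.64 and 8.92 on the pMCAO arrays, against 8.84, 8.92 and 9.19 on the sham arrays, a difference of -0.22 ± 0.10 (SE, limma adjusted p = 0.705) with overlapping groups.

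Adora2a had 6.14, 5.71 and 5.96 on the rat 2 h pMCAO arrays, against 5.89, 6.13 and 6.47 on the sham arrays. Adcy5 had 9.05, 8.89 and 8.89 on the pMCAO arrays, against 8.97, 9.09 and 9.10 on the sham arrays. Both overlapped widely, with log2 differences of -0.23 and -0.11. Gpr52 was the exception in sign, with 7.38, 7.37 and 7.46 on the pMCAO arrays, against 7.40, 7.43 and 7.20 on the sham arrays, a difference of 0.06 ± 0.10 (SE, limma adjusted p = 0.936).

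The change of effect between 2 h and 6 h passed for 0 of the 8 rat genes with limma, against 0.231% of all rat genes, and 3 had an unadjusted p under 0.05. These were Pde10a, with a difference of 0.56 ± 0.16 (SE, adjusted p = 0.211 in limma), Gpr52 with -0.40 ± 0.14 (adjusted p = 0.295) and Adora2a with 0.55 ± 0.24 (adjusted p = 0.444). Without the 6 h pMCAO replicate 2, Pde10a passed with 0.70 (adjusted p = 0.0357).

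**Figure D3:**
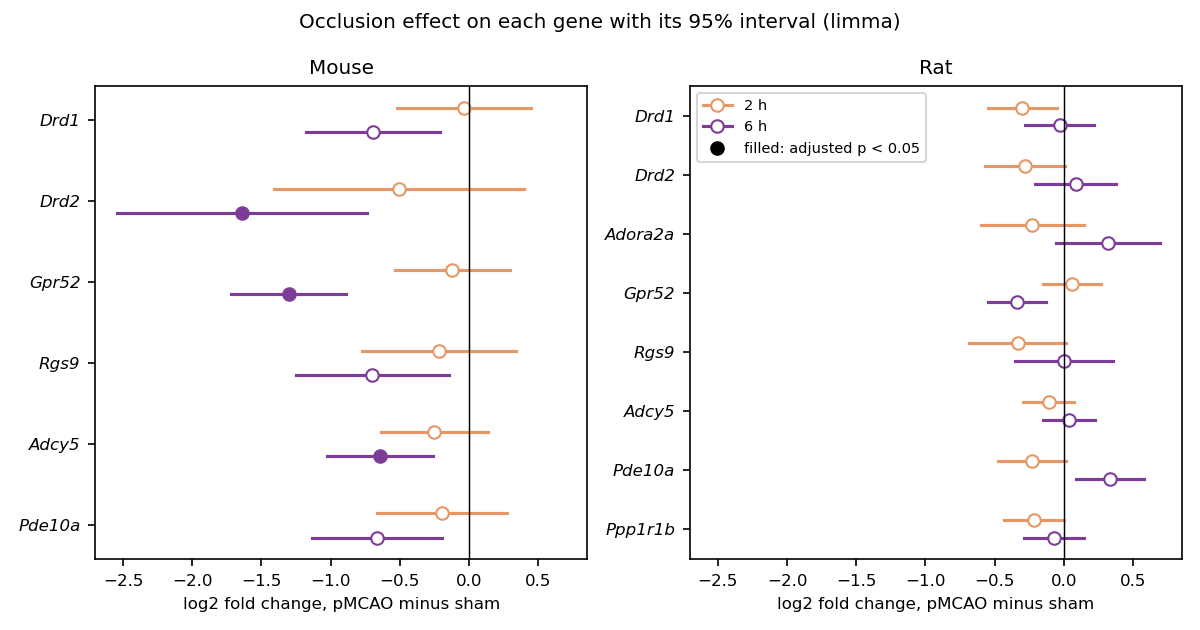
Log2 difference, pMCAO minus sham, with its 95% limma interval for each gene at 2 h and 6 h, mouse on the left and rat on the right; filled points passed the adjusted threshold. Mouse intervals at 6 h all lie below 0 and Drd2 reaches furthest at -1.64, while rat intervals at 6 h hold 0 except those of Gpr52 and Pde10a.

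The species difference was tested for the 6 genes measured in both, as the mouse effect minus the rat effect, with adjustment over 14193 shared symbols. At 6 h, 2 of 6 passed, against 2.28% of all shared symbols. Pde10a differed by -1.0 ± 0.24 (SE, 95% interval -1.51 to -0.49, adjusted p = 0.0364 from the limma fits), with effects of -0.67 in mouse and 0.34 in rat. Gpr52 differed by -0.97 ± 0.21 (SE, 95% interval -1.42 to -0.52, adjusted p = 0.0250 from the limma fits), with -1.30 in mouse and -0.34 in rat.

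Drd2 showed the widest species gap at 6 h, -1.73 ± 0.43 (SE, 95% interval -2.66 to -0.80), but its spread left it outside the threshold (adjusted p = 0.0541 from the limma fits). Rat 6 h sham means were 6.01 in Drd2 and 5.97 in Drd1, near the array medians of 5.82 to 5.87. Mouse 6 h sham Drd2 averaged 8.20, against medians of 5.92 to 5.96. Rat Adcy5 and Pde10a sham means, at 8.02 and 8.87, were well above the median. How far low rat levels left room for a fall was not tested. Adcy5 differed by -0.68, Rgs9 by -0.70 and Drd1 by -0.66, with adjusted p from 0.0801 to 0.252 from the limma fits. Over leaving out each of the 12 arrays at 6 h in turn, the number that passed ran from 0 to 6. It was 6 without mouse sham replicate 2, and 0 without mouse sham replicate 1 or mouse pMCAO replicate 1 or 3. It was 1 without mouse pMCAO replicate 2, mouse sham replicate 3, rat pMCAO replicate 1 or 3, or any of the 3 rat sham arrays, and 2 without rat pMCAO replicate 2. Of these 12 fits Gpr52 passed in 8 and Pde10a in 3. At 2 h, 0 of 6 passed, 0 had an unadjusted p under 0.05, and 0.0141% of all shared symbols were called. Species also differed in side, filament, method and array, so none of these can be told apart from species.

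How far these genes moved together from animal to animal was described from each array's deviation from its own group mean, so that neither time nor pMCAO enters. In the mouse each gene followed the mean of the other 5 closely, with Pearson r over the 12 arrays from 0.854 in Drd1 to 0.960 in Pde10a. The SD of these deviations was 0.603 for Drd2 and between 0.249 and 0.366 for the other 5, against a median of 0.114 over all mouse genes. The widest departure was the low 6 h sham replicate 2, whose mean over the 6 genes was 0.65 below its group on the log2 scale. Sham replicate 3 at 6 h was 0.47 above its group, and pMCAO replicate 1 at 2 h was 0.37 above its group. These correlations share arrays and the array-wide scale, and a group of 3 fixes each deviation partly by the others.

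In the rat the genes held together less. Against the mean of the other 7, r was 0.723 for Rgs9, 0.671 for Adora2a, 0.600 for Drd2, 0.566 for Ppp1r1b, 0.541 for Drd1 and 0.376 for Adcy5. Pde10a had -0.01 and Gpr52 -0.37, so the rat genes with the smallest unadjusted p at 6 h were those that did not track the rest. The SDs ran from 0.0969 in Adcy5 to 0.244 in Adora2a, around the all-gene median of 0.126.

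The same animal-to-animal pattern was set against other cell markers. In mouse the mean deviation of the 6 genes followed that of 30 other striatal projection neuron genes with Pearson r = 0.966 and Spearman rho = 0.930 over 12 arrays, and r = 0.888 without the 6 h sham replicates 2 and 3, the most extreme arrays. Against cortical projection neuron markers r was 0.265 with all 12 arrays, and against pan-neuronal markers 0.0136. Against GABAergic markers it was 0.493 (rho = 0.497), and 0.0147 without the 6 h sham replicates 2 and 3. The mouse cortical and pan-neuronal means varied little, with SDs of the deviations of 0.0179 and 0.0228, against 0.141 for the other striatal genes. In rat the match with 29 other striatal genes was r = 0.846 and rho = 0.685, and r = 0.472 without the 2 h sham replicates 1 and 3. The rat relation thus rests in large part on those 2 arrays. With all 12 rat arrays r was 0.097 against cortical, -0.460 against pan-neuronal and -0.198 against GABAergic markers. These values describe the arrays and carry no test.

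**Figure D4:**
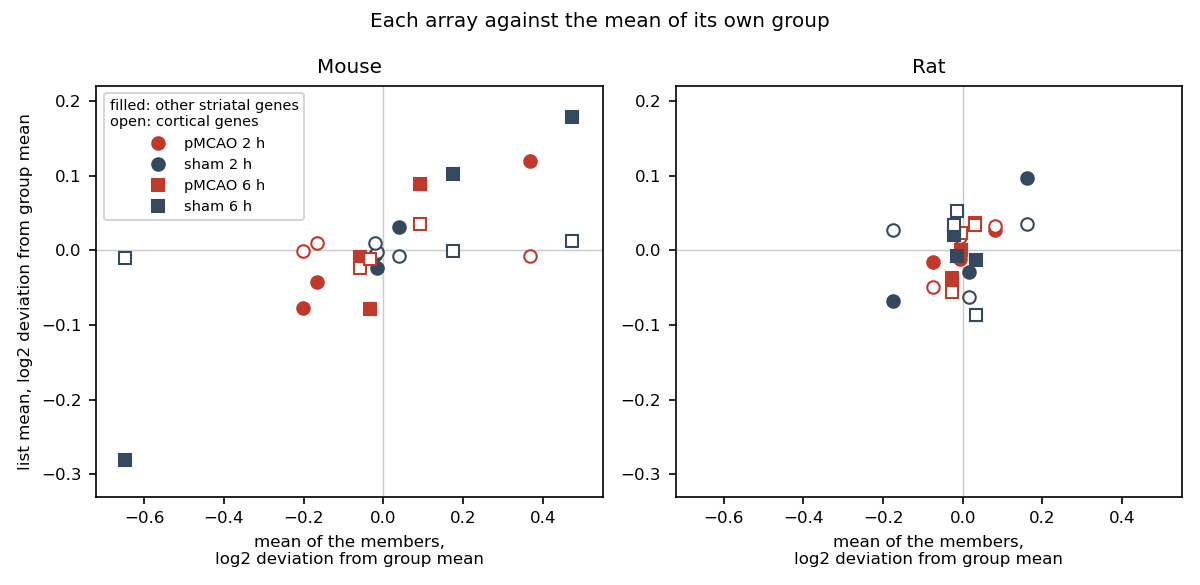
Each point is an array: its deviation from its group mean (log2) for the mean of the described genes on the horizontal axis and for the mean of other striatal genes or of cortical projection neuron markers on the vertical axis, in mouse and rat. Mouse points for striatal genes lie along a line (r = 0.966) with 6 h sham replicate 2 at the far low end, while cortical markers stay near 0 on that array at -0.01.

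By the same measure the mouse genes most like the described set were Penk at r = 0.996, Pde1b at 0.980, Syndig1l at 0.970, Ric8b at 0.958 and Tac1 at 0.954 over 12 arrays. Penk, the enkephalin precursor of indirect-pathway neurons, averaged 9.16 ± 0.12 on the 6 h pMCAO arrays and 10.08 ± 0.72 on the sham arrays (SD, n = 3 each). Its log2 difference of -0.92 ± 0.29 (SE) did not pass (limma adjusted p = 0.0747). The lowest were Fam50a at -0.950, Dlgap1 at -0.948, Alox5 at -0.939, Rpl21 at -0.921 and Fsip2l at -0.909. In rat the highest were Erp29 at 0.945, Rbbp9 at 0.934, Klk8 at 0.923, Kl at 0.898 and Micalcl at 0.893. The lowest in rat were Acvr1c at -0.894, Tmem215 at -0.892, Rassf5 at -0.891, Cbln2 at -0.878 and Kcnc1 at -0.871. All were picked by r as extremes from 22180 mouse and 18166 rat genes, less unnamed or predicted symbols, so these values carry no test. Penk, Pde1b, Syndig1l and Tac1 are also on the list of other striatal genes, and Kl on that of choroid plexus markers.

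Other striatal projection neuron genes, a list of 32 that shares no gene with the 8, went the same way in mouse at 6 h. Of 30 measured, 10 fell and 0 rose, where 4.23% of all mouse genes fell. Below 0 lay 28, against 53.4% of all genes, and the median log2 difference was -0.47, against -0.02 over all genes. The list's mean level per array was 7.32, 7.23 and 7.16 after pMCAO, against 7.76, 7.38 and 7.84 after sham, with replicate 2 again the lowest sham array. The number that fell was 19 without that array. It was 9, 6 and 3 without pMCAO replicates 1, 2 and 3, and 4 and 2 without sham replicates 1 and 3. Penk was the lowest member at -0.92, and Zfp503, a striatal zinc finger gene, the highest at 0.07.

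Of those that fell, Tac1, the substance P precursor of direct-pathway neurons, averaged 6.20 ± 0.16 in pMCAO and 6.95 ± 0.45 in sham mice at 6 h (SD, n = 3 each). It fell by 0.75 on the log2 scale (limma adjusted p = 0.0335). The transcription factor Foxp2 fell by 0.62 (adjusted p = 0.0177), the Rap exchange factor Rasgrp2 by 0.60 (adjusted p = 0.0220) and the potassium channel partner Kcnip2 by 0.57 (adjusted p = 0.00953, all limma). All 10 falls were smaller than those of Drd2 and Gpr52.

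In mouse at 2 h, 0 of the 30 passed with limma, 2 had an unadjusted p under 0.05, and the values ran from -0.34 in Penk to 0.26 in Arpp21. In rat, 0 of 29 passed at 2 h, with 4 at an unadjusted p under 0.05, a median of -0.02 and a range from -0.28 in Gnal to 0.19 in Arpp21. At 6 h in rat 1 fell, 0 rose, and the median was -0.03, where 6.47% of all rat genes were called. The faller was Dgkb, a diacylglycerol kinase, with 9.70 ± 0.13 in pMCAO and 9.97 ± 0.02 in sham rats (SD, n = 3 each, limma adjusted p = 0.0450). The count was 0 without any single 6 h array other than pMCAO replicate 2. The extremes were -0.32 in Gng7 and 0.38 in Chrm4, and neither passed.

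The wider dopamine and adenosine cAMP chain, is a list of 51 genes that shares 8 with the other striatal list. In mouse at 6 h 7 of 48 fell and 1 rose, with a median of -0.07, where 4.23% of all mouse genes fell. Falls of genes on both lists, Gnal among them, are counted in both. Leaving out an array gave 9 falls without sham replicate 2 and 1 to 4 without any of the other 5. The falls named by size were Pde7b, a cAMP phosphodiesterase, by 0.60 (limma adjusted p = 0.0112), Prkar2b, a regulatory subunit of protein kinase A, by 0.55 (adjusted p = 0.0161), and Gnal, the striatal stimulatory G protein, by 0.55 (adjusted p = 0.0201). Gpr6 was lowest at -0.65 and did not pass. Rgs2, an early-induced regulator of G protein signalling, rose by 0.67 at 6 h (limma adjusted p = 0.0285) and by 0.98 at 2 h (adjusted p = 0.0309), where it alone passed and the lowest was Gng7 at -0.31. It lost the 6 h call without any single 6 h array other than pMCAO replicate 1, and the 2 h call without pMCAO replicate 1 or any sham array.

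In rat 0 of 46 members of the chain passed at 2 h, with 5 at an unadjusted p under 0.05 and a range from -0.28 in Gnal to 0.65 in Rgs2. At 6 h 2 rose and 0 fell, where 6.47% of all rat genes were called. The number that rose was 3 without pMCAO replicate 2 and 1 without any of the other 5 arrays of 6 h. Rgs2 rose by 1.57 (limma adjusted p = 0.000925) and Rgs4, which damps G protein signalling in many neurons, by 0.48 (adjusted p = 0.0352). The lowest was Gng7 at -0.32.

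Markers of other cells in the same pieces were set beside the mouse 6 h result, where 7.43% of all mouse genes were called. Cortical projection neuron markers, 13 of 14 above the array median, had list means of 8.25 to 8.31 in pMCAO and 8.34 to 8.36 in sham mice. Of the 14, 3 fell and 1 rose, from Neurod6 at -0.73 to Rtn4rl2 at 0.39, with a median of 0.03. Pan-neuronal markers had list means of 10.44 to 10.50 in pMCAO and 10.54 to 10.58 in sham mice, with Stmn2 the 1 of 12 that fell, at -0.22, Map2 highest at 0.02, and a median of -0.10. GABAergic markers, of inhibitory neurons, had list means of 7.14 to 7.18 in pMCAO and 7.29 to 7.43 in sham mice, with Dlx5 the 1 of 6 that fell, at -0.39, Gad2 highest at -0.02, and a median of -0.16.

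Striatal interneuron markers, 5 of 11 above the array median, had list means of 6.40 to 6.45 in pMCAO and 6.45 to 6.56 in sham mice at 6 h. Pvalb fell by 0.34 and Npy rose by 0.40, and both were the extremes of the list. With the striatal share of the pieces not known, neither value can be assigned to interneurons of the striatum. Oligodendrocyte markers had list means of 9.42 to 9.50 in pMCAO and 9.08 to 9.41 in sham mice. All 9 lay above 0, from Mbp at 0.06 to Opalin at 0.43, with a median of 0.18, and 0 passed with limma although 5 had an unadjusted p under 0.05. Choroid plexus markers, 4 of 8 above the array median, had list means of 6.05 to 7.31 in pMCAO and 5.87 to 6.46 in sham mice, with pMCAO replicate 3 the highest. All 8 lay above 0, from Folr1 at 0.09 to Ttr at 0.86, with a median of 0.31, and 0 passed with limma, 1 at an unadjusted p under 0.05. Of 10 astrocyte markers 1 rose, from Fgfr3 at -0.26 to Gfap at 0.89. Of 9 microglia markers 2 fell, from P2ry12 at -0.78 to C1qb at 0.14. Of 10 endothelial markers 2 fell and 1 rose, from Slco1a4 at -0.82 to Cdh5 at 0.58. Of 10 thalamic and hypothalamic markers 1 fell, from Slc17a6 at -0.46 to Trh at 0.13. The medians of these lists were 0.012, 0.053, -0.065 and 0.015. The part of these marker shifts in the fall of the striatal genes was not tested.

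In rat at 6 h, where 6.47% of all rat genes were called, the cortical list had means of 8.63 to 8.72 in pMCAO and 8.75 to 8.89 in sham. There 2 of 13 fell, Neurod1 at -1.12 and Neurod6 at -0.91, Rtn4rl2 was highest at 0.50, and the median was -0.07. Rat striatal list means overlapped, from 7.35 to 7.42 in pMCAO and from 7.38 to 7.41 in sham. Of 7 GABAergic markers in rat, Slc32a1 rose by 0.26 and Dlx1 fell by 0.39, with Dlx5 lowest at -0.59 without passing. Of 8 rat endothelial markers 3 fell and 0 rose, from Slco1a4 at -1.90 to Cdh5 at 0.47. Of 9 microglia markers 3 rose and 2 fell, and of 11 interneuron markers 1 rose. Pan-neuronal list means were 10.901 to 10.938 in pMCAO and 10.946 to 11.025 in sham rats, and 0 of 12 passed. In the astrocyte, oligodendrocyte, choroid plexus, and thalamic and hypothalamic lists 0 passed.

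How far the mouse 6 h differences went with the rest of the striatal signal was measured by adding the mean of the other striatal genes to the fit. With that term, 0 of the 6 passed with limma and 1 had an unadjusted p under 0.05. Gpr52 kept a difference of -0.61 ± 0.19 (SE, limma adjusted p = 0.266), while Drd2 was at 0.12, Drd1 at 0.05, Adcy5 at 0.08, Pde10a at 0.23 and Rgs9 at 0.29. In the same fit 23 of all mouse genes passed, against 1649 without the term. That term itself differed between pMCAO and sham, so the fit takes away what the groups share with it, and it does not separate tissue share from response.

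With the mean of the cortical markers as the term in its place, 0 of the 6 passed with limma, 1 had an unadjusted p under 0.05, and 20 of all mouse genes passed. Gpr52 was then at -1.06 (limma adjusted p = 0.466), Drd2 at -0.94, Drd1 at -0.48, Rgs9 at -0.33, Pde10a at -0.29 and Adcy5 at -0.17. The cortical means of pMCAO and sham mice did not overlap at 6 h. Within groups, the SD of the cortical mean's deviations was 0.0179, against 0.141 for the other striatal genes. The cortical term thus had little within-group range to fit on. For rat Gpr52 at 6 h the striatal term left the log2 difference at -0.34 (limma adjusted p = 0.0736).

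**Figure D5:**
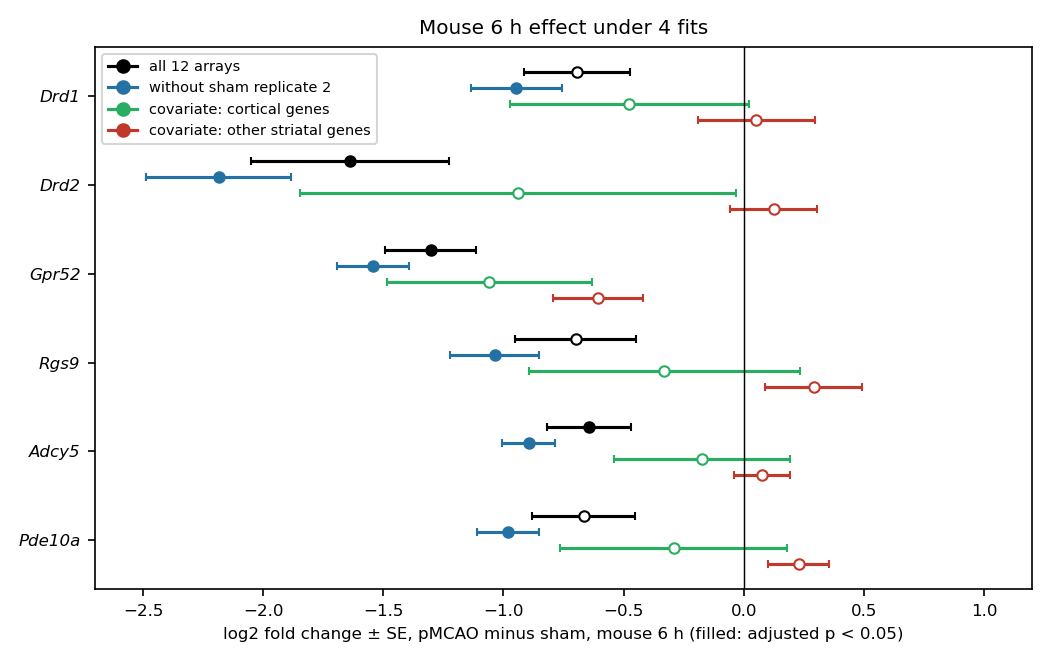
Log2 difference, pMCAO minus sham, ± SE for the 6 mouse genes at 6 h in 4 limma fits: all 12 arrays, without sham replicate 2, and with the mean of cortical markers or of other striatal genes as a term; filled points passed the threshold. Without sham replicate 2 all 6 passed, and with the striatal term Gpr52 alone stays well below 0, at -0.61.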

How the data were processed

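RNA of 24 animals, 3 in each of 8 groups, was measured on whole-transcript arrays. Per the labels' protocols, RNA was isolated with an RNeasy kit, had an integrity number above 7.5 and was labelled with the WT PLUS kit, with 1 animal per array. Titles gave each sample's group and replicate number, since the time point label holds 2 h throughout, against the titles, source names and descriptions. For each species the authors deposited a table with log2 expression, rounded to 2 decimals. Oligo and limma are named per the submitters' processing notes. How background and scale were handled, the versions and the genome build are not stated in the labels. No detection calls were given, so no gene was called absent.

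Symbols came from the platform annotation. Of 41345 mouse clusters 23521 had a single symbol, 1814 several and 16010 none, and of 36685 rat clusters 18511, 575 and 17599. Where a symbol had several clusters (1082 mouse and 291 rat symbols), the one with the highest mean was used, while each gene described had a single cluster. Any pair of arrays shared at most 2.54% of its values. Group means were fitted per species over 12 arrays (8 residual degrees of freedom) with limma 3.58.1, run in R 4.3.3. Species effects were compared with Welch-Satterthwaite degrees of freedom. The group fit with its contrasts, and the species difference at 2 h, were tested on simulated data, and the other steps were not. P-values, SEs and intervals rest on a spread between animals pooled over all groups of a species and moderated towards all genes. In mouse the sham SD was wider at 6 h than at 2 h, at 0.507 against 0.049 in Gpr52 and 0.950 against 0.075 in Drd2. The mouse 6 h intervals therefore also draw on the tighter 2 h sham arrays.

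The genes and lists were chosen with earlier results of these data known. Named genes were the 8 described, the highest and lowest member of each list given, up to 4 members past the threshold per list, and the 5 most and 5 least alike in array deviations (unnamed or predicted symbols left out). Alternatives were quantile normalization, median centring, trended and robust eBayes, array weights, the 6 arrays of a time alone, all clusters, the mean of clusters, genes with a mean above the median of all genes, a log2 fold limit of 0.5, a replicate block, marker means as covariates, and each array left out. Leaving out arrays for the other gene lists was chosen after seeing the data.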

Additional observations from a re-analysis of the deposited data

Results flagged for a closer look

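The pMCAO effect at 6 h differed between the species by the test of the difference in Gpr52, by -0.97 (mouse minus rat), and in Pde10a, by -1.0. Without single arrays Gpr52 passed in 8 of 12 fits and Pde10a in 3. Pde10a had opposite signs, at -0.67 in mouse and 0.34 in rat, while Gpr52 was lower after pMCAO in both, at -1.30 in mouse and -0.34 in rat.

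In the rat, 3 genes had every pMCAO array on one side of the sham mean at 2 h and on the other side at 6 h. The 6 h effect minus the 2 h effect was 0.55 in Adora2a, -0.40 in Gpr52 and 0.56 in Pde10a. With limma the differences did not pass (adjusted p = 0.444 for Adora2a, 0.295 for Gpr52 and 0.211 for Pde10a).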

How the results depend on the processing

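In mouse at 6 h the 3 calls became 1 with array weights, the 6 arrays alone or all clusters. They became 5 among genes above the median level, 0 with either covariate, and 1 to 6 without single arrays. In all, 1649 mouse genes were called in the main fit, 1156 with array weights, 246 with those 6 arrays and 830 with all clusters. Among 11090 genes above the median level 2480 were called, and 23 and 20 genes with the striatal and cortical covariates. In rat at 6 h the 0 calls became 1 with quantile normalization and 2 with a trended and robust eBayes. Without single arrays they became 0 to 1. Among genes above the median level, 2 of the 5 described genes tested passed. Rat genes called in all were 1175 in the main fit, 1200 with quantile normalization and 1698 with that eBayes. Above the median level, 1608 of 9082 were called. For the change from 2 h to 6 h, 0 became 1 in mouse among genes above the median level (Gpr52). In rat it became 0 to 1 without single arrays. Above that level 419 of 11090 mouse genes were called for the change, against 38 of 22180 in the main fit. The 2 species differences at 6 h became 0 with the 6 arrays alone and 0 to 6 without single arrays. With the 6 arrays alone 65 shared symbols were called, against 323 in the main fit. The other counts of the described genes past the adjusted threshold stayed within 1.5 times of those reported. The 2 rat genes with an unadjusted p under 0.05 at 2 h became 5 with median centring or a trended and robust eBayes, 4 with array weights, 3 with the replicate block, 1 with all clusters or among genes above the median level, and 0 with either covariate. The deviations of same-numbered arrays of pMCAO and sham had r from -0.125 to 0.327 across genes. The highest was replicate 2 of rat at 2 h, above every differently numbered pair, whose highest was 0.201. A replicate block left 3 calls in mouse at 6 h, Drd1 gained (limma adjusted p = 0.0338) and Drd2 lost (adjusted p = 0.0637), with 665 mouse genes called against 1649. Of the species differences at 6 h, Pde10a then lost its call (adjusted p = 0.0516) and Adcy5 gained one (adjusted p = 0.0344). Signs turned as follows, in log2 differences that passed no test in that setting. With the striatal covariate, mouse Drd1 was 0.071 at 2 h, and at 6 h Drd1 was 0.053, Drd2 0.12, Rgs9 0.29, Adcy5 0.076 and Pde10a 0.23. The mouse change was then 0.38 for Drd2, 0.36 for Rgs9, 0.22 for Adcy5 and 0.30 for Pde10a. Mouse Drd1 at 2 h was 0.010 with array weights and 0.0098 with the cortical covariate, which gave 0.12 for rat Drd1 and 0.0091 for rat Ppp1r1b at 6 h. Without single arrays, mouse Drd1 at 2 h ran from -0.21 to 0.078, rat Gpr52 at 2 h from -0.012 to 0.10, and at 6 h rat Drd1 from -0.08 to 0.035, Drd2 from -0.005 to 0.17 and Adcy5 from -0.027 to 0.098. The species difference at 2 h ran from -0.11 to 0.35 in Rgs9 and from -0.11 to 0.14 in Pde10a. The cause was not tested. With 3 arrays a group and no detection calls, the intervals limit what can be resolved, most in mouse Drd2.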
